A study of Mus musculus with 7 samples.

Results

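The 10 mouse genes *S100a8*, *S100a9*, *Ly6g*, *Retnlg*, *Mmp8*, *Il1r2*, *Trem1*, *Camp*, *Ngp* and *Ltf* are known for their expression in neutrophils, and they were taken from the expression table by symbol, 10 of 38026 genes. *Trem1* filled a second row under another gene identifier, with the same value in every library, and it was counted once. The genes were followed in bulk RNA-seq of 7 subcutaneous (s/c) tumors of pancreatic ductal adenocarcinoma (PDA), 4 formed by sgScramble control cells and 3 by sgKRT19-edited cells. The comparison asks how these transcripts differ between the tumors when *Krt19*, an epithelial keratin gene, has been edited in the cancer cells.

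By their labels the groups differed only in the guide RNA. The cancer cells were the 1242 line, established from a mouse pancreatic tumor. They had been transduced with lentivirus for SpCas9 and either a scrambled guide (sgScramble, libraries 1 to 4) or a *Krt19* guide (sgKRT19, libraries 5, 6 and 8). The hosts were C57BL/6 mice, the tumors were not treated and were taken 2 weeks after inoculation. The labels give neither the age of the mice, nor the guide, nor whether a polyclonal line or a single-cell clone was injected. All cancer cells descend from 1 line, so the groups compare derivatives of that line. Each library is given as a separate tumor, and p-values measure the spread between these tumors. Libraries held 40781199 to 44972100 reads. Normalized read counts are given throughout, meaning the reads of a gene after division by the size factor of its library. The figure after ± is the SD among libraries of the same group.

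*Krt19* was 25574, 21179, 27618 and 17841 in sgScramble tumors and 1606, 1960 and 2470 in sgKRT19 tumors, so that log2 values differed by −3.52 (SE 0.183, limma adjusted p = 1.74e-05). The libraries therefore match their labels at the edited gene. The epithelial keratin gene *Krt8* was at 46646 to 65462 in sgScramble and at 95718 to 112985 in sgKRT19 tumors (log2 fold change 0.91, limma adjusted p = 0.00359). sgScramble library 3 stood apart from the other controls in skeletal muscle genes, and without it *Retnlg* lost its call (limma adjusted p = 0.05005) while the other called members kept theirs. General leukocyte genes also differed: *Ptprc*, which encodes CD45, was 789 to 1195 in sgScramble and 1882 to 2416 in sgKRT19 tumors. In bulk tumor RNA, fewer cells of a type and less RNA per cell cannot be told apart.

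Neutrophils are built in the marrow in stages. Promyelocytes fill the primary granules with enzymes such as myeloperoxidase and elastase. Myelocytes and metamyelocytes then fill the secondary and tertiary granules with lactoferrin, cathelicidin and gelatinases, and these granule transcripts decline as the cells mature and leave the marrow. Mature neutrophils carry abundant S100A8 and S100A9, the pair that forms calprotectin, together with surface receptors such as the IL-1 decoy receptor and the chemokine receptor CXCR2. Several of the 10 genes are not restricted to neutrophils: monocytes also express *S100a8*, *S100a9*, *Il1r2* and *Trem1*, regulatory T cells can express *Il1r2*, and secretory epithelia express *Ltf*.

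The label of neutrophil genes was set beside the reads of genes typical of the cell at several stages. *Ly6g*, the surface antigen used to identify mouse neutrophils, had 5, 1, 1 and 2 reads in the sgScramble libraries and 5, 1 and 4 reads in the sgKRT19 libraries. *Camp*, the cathelicidin gene, had 0, 2, 0 and 0 reads against 5, 0 and 2 reads. *Ngp*, which encodes a neutrophil granule protein of the cathelicidin and cystatin superfamily, had 0, 2, 0 and 0 reads against 8, 0 and 0 reads. The groups overlapped for these 3 genes, and no fold was calculated for them. A count of 0 allows up to 3 reads, a value of 2.74 to 3.47 depending on the library, and this floor covers counting error only. *Elane* and *Ms4a3* of the primary granule list and *Fcnb* of the secondary granule list were also at or under 3 reads in every library. By contrast, *Cxcr2* lay at 25.7 to 138 and *Csf3r*, the G-CSF receptor gene, at 170 to 536 over the 7 libraries. *Ly6g* and several granule transcripts were thus near the floor in both groups while other neutrophil transcripts were detected. Granule transcripts decline as the cells mature, so their low reads cannot show whether mature neutrophils were present. For *Ly6g*, how reads that match several similar genes were counted is not known. The genes are therefore named by symbol below and not as a measure of a cell type.

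Promoter sequence is shown for 4 members: the calprotectin pair, which moved together, *Ltf*, which moved further than the pair, and *Ngp*, which stayed near the floor. The stretches are the bases ahead of the first annotated exon within windows of 250 bases before to 50 bases after the gene start, from RefSeq on GRCm38.p6. They lie at chr3:90668821-90668977 (plus strand, *S100a8*), chr3:90695722-90695971 (minus strand, *S100a9*), chr9:111019042-111019270 (plus strand, *Ltf*) and chr9:110419558-110419746 (plus strand, *Ngp*). They are written 5′ to 3′, and capitals mark the C/EBP core TTNNGNAA on either strand. C/EBP factors are regulators of granulocyte genes.
S100a8: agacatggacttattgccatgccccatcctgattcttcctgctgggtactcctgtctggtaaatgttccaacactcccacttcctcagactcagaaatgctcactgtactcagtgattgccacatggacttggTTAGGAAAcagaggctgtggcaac
S100a9: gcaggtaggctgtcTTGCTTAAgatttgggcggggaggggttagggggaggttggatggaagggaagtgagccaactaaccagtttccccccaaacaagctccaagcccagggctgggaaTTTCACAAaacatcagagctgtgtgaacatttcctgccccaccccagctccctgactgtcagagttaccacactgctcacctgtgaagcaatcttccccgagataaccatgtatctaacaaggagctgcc
Ltf: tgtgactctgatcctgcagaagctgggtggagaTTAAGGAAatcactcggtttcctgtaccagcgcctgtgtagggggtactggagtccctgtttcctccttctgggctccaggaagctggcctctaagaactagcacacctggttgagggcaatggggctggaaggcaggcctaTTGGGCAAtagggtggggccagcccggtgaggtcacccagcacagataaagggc
Ngp: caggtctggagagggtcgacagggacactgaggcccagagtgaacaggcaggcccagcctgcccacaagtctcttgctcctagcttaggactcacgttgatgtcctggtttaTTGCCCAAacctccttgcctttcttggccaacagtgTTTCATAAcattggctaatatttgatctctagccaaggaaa
All 10 members matched a gene of the promoter table. Over the full windows, the C/EBP core was present for 8 of 10 members, all but *Camp* and *Il1r2*, and in 40.7% of 32851 windows of all genes. The PU.1 core GAGGAA, searched on both strands, was present for 5 of 10 members (*Ltf*, *Ly6g*, *Mmp8*, *S100a8* and *Trem1*) and in 28.3% of windows. A member was counted if any of its windows matched, whereas the shares over all genes are per single window, so these measures are unlike. No match of either core in a member overlapped a match of the other. A match is a description of the letters and was not read as a binding site.

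To ask which members differed, log2(value + 1) was fitted by limma over 21322 genes, those that reached a value of 10 in 3 or more libraries, and a gene was called at a Benjamini-Hochberg adjusted p under 0.05. Of the 10 members, 5 were called higher in sgKRT19 tumors (*Ltf*, *S100a8*, *S100a9*, *Il1r2* and *Retnlg*), 2 were tested and not called (*Trem1* and *Mmp8*), and 3 did not reach the filter (*Ly6g*, *Camp* and *Ngp*). *Retnlg* passed the filter through the sgKRT19 libraries, where it was higher, so its call is not independent of the filter. *Retnlg* is part of the counts and the median that follow. With a filter at 50 it was not tested, and the other 4 were called higher. Over all tested genes 17.9% were called higher and 16.0% lower, 34.0% in either direction. The fold changes of all 7 tested members were positive, with a median of 1.44 on the log2 scale beside 0.01 over all tested genes. The same 5 members had every sgKRT19 library above every sgScramble library, which held for 21.7% of tested genes (41.1% had separate groups in either direction). The quasi-likelihood test of edgeR, run on recovered whole reads, called 5 members higher too, beside 17.3% of genes. The plot of the 10 genes by library shows these separations together with the 3 members at the floor.

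**Figure D1:**
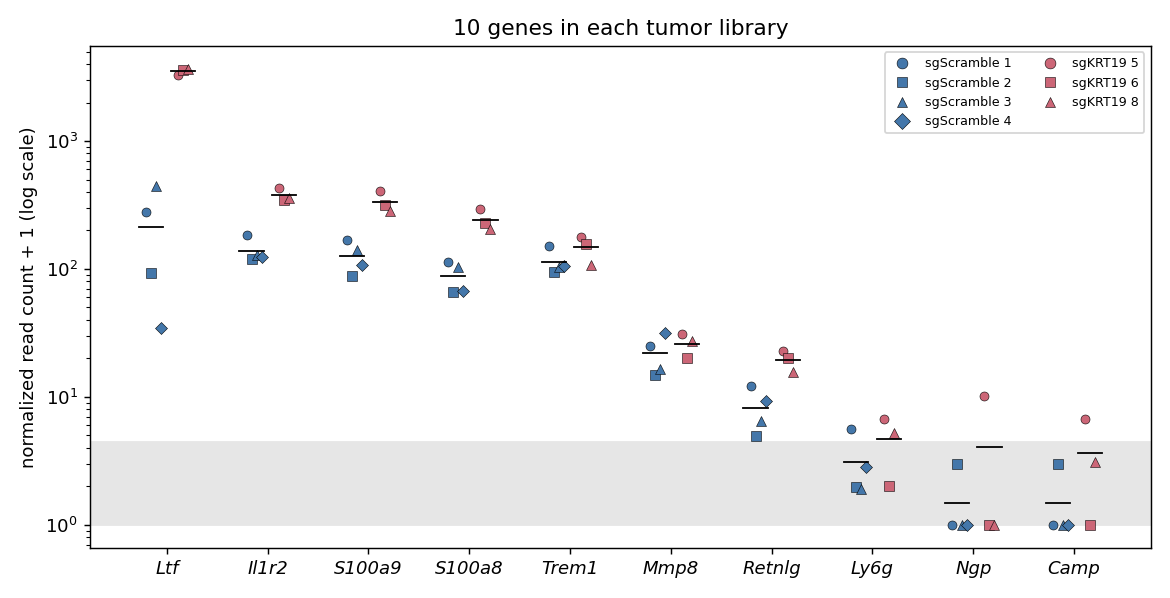
Normalized read count + 1 on a log axis for the 10 genes. Points are single tumor libraries (blue sgScramble, n = 4, and red sgKRT19, n = 3), horizontal bars are group means, and the grey band reaches the largest value that 3 reads have in any library. The sgKRT19 points of *Ltf*, at 3300 to 3673, lie far above the sgScramble points, while *Camp*, *Ngp* and *Ly6g* lie in or near the band.

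*Ltf* encodes lactoferrin, an iron-binding protein of the secondary granules and of exocrine secretions (chr9:111019271-111042767, plus strand, GRCm38). It was 276, 91.9, 448 and 33.4 in sgScramble tumors (mean 212 ± 188, n = 4) and 3300, 3616 and 3673 in sgKRT19 tumors (mean 3530 ± 201, n = 3). The 3 sgKRT19 tumors lay close together, whereas the sgScramble tumors were spread widely, with library 3 highest and library 4 lowest. The mean was 16.6-fold higher in sgKRT19 tumors. The log2 fold change was 4.64 (SE 0.695, 95% interval 3.10 to 6.19, limma adjusted p = 0.000957), rank 77 of 21322 tested genes when ordered from the largest increase to the largest decrease. By edgeR, which models the reads and not their logarithms, it was 4.03.

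*S100a8* (chr3:90668978-90670035, plus strand) and *S100a9* (chr3:90692632-90695721, minus strand) encode the calcium-binding subunits of calprotectin, which also sequesters zinc and manganese. *S100a8* was 113, 65.2, 102 and 65.8 in sgScramble tumors (mean 86.7 ± 24.8) and 292, 229 and 205 in sgKRT19 tumors (mean 242 ± 45.3). *S100a9* was 166, 87.0, 141 and 106 in sgScramble tumors (mean 125 ± 35.4) and 403, 314 and 282 in sgKRT19 tumors (mean 333 ± 62.7). For both genes the lowest sgKRT19 tumor, library 8, was above the highest sgScramble tumor, library 1. The log2 fold changes were 1.5 for *S100a8* (SE 0.244, 95% interval 0.96 to 2.04, limma adjusted p = 0.00148) and 1.44 for *S100a9* (SE 0.236, 95% interval 0.91 to 1.96, limma adjusted p = 0.00158). The subunits kept a narrow ratio in normalized read counts, not corrected for length: *S100a9* was 1.33 to 1.61 times *S100a8* in sgScramble libraries and 1.37 to 1.38 times in sgKRT19 libraries. On the same scale the ratio of *Ltf* to *S100a8* did not stay in a narrow range, being 0.507 to 4.38 in sgScramble and 11.3 to 17.9 in sgKRT19 libraries.

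Among the surface receptors, *Il1r2* was called higher and *Trem1* was not, a contrast between the genes that was itself not tested. *Il1r2*, the decoy receptor that binds IL-1 without signaling (chr1:40074079-40125231, plus strand), was 182, 119, 128 and 123 in sgScramble tumors (mean 138 ± 29.6) and 432, 348 and 355 in sgKRT19 tumors (mean 378 ± 46.8). The groups did not overlap, and the log2 fold change was 1.46 (SE 0.186, 95% interval 1.05 to 1.88, limma adjusted p = 0.000394). *Trem1*, an activating receptor of neutrophils and monocytes that signals through DAP12 (chr17:48232768-48246924, plus strand), was 150, 92.9, 102 and 104 in sgScramble tumors (mean 112 ± 25.9) and 177, 156 and 107 in sgKRT19 tumors (mean 147 ± 35.8). The groups overlapped, because sgKRT19 library 8 fell among the controls. The log2 fold change of *Trem1* was 0.38 with an interval of −0.14 to 0.90 (limma adjusted p = 0.232), an interval that leaves out the fold change of *Il1r2*. *Ly6g* (chr15:75155240-75159126, plus strand), the remaining surface member, belongs to a cluster of similar genes, and how reads that match several genes were counted is not given in the sources used here.

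The other secreted or granule members were low. *Retnlg*, a resistin-like secreted protein gene (chr16:48872621-48874496, plus strand), was 11.1, 3.95, 5.48 and 8.35 in sgScramble tumors and 22.0, 19 and 14.7 in sgKRT19 tumors, from 4 to 12 and 14 to 19 reads. The groups did not overlap, and the log2 fold change was 1.31 (SE 0.389, 95% interval 0.45 to 2.18, limma adjusted p = 0.0263). *Retnlg* reached the filter value in 1 sgScramble and 3 sgKRT19 libraries, so it was tested through the group where it was higher, and its call was lost without sgScramble library 2 or 3 or sgKRT19 library 5 or 6, with adjusted p up to 0.363 over all settings tried. *Mmp8*, neutrophil collagenase (chr9:7558456-7568485, plus strand), was 24.2, 13.8, 15.5 and 30.6 in sgScramble tumors and 30.1, 19 and 26.3 in sgKRT19 tumors. The *Mmp8* groups overlapped throughout, with a log2 fold change of 0.29 (95% interval −0.47 to 1.05, limma adjusted p = 0.530). *Camp* (chr9:109847379-109849617, minus strand) and *Ngp* (chr9:110419747-110423012, plus strand) lie on the same chromosome as *Mmp8* and *Ltf*.

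Levels can be compared between genes per kilobase of annotated exon. In sgScramble tumors the mean level per kilobase was 239 for *S100a9*, 125 for *S100a8*, 72.3 for *Il1r2*, 61.5 for *Ltf*, 37.5 for *Trem1*, 12.2 for *Retnlg* and 8.67 for *Mmp8*. In sgKRT19 tumors *Ltf* came first at 1023, followed by *S100a9* at 639, *S100a8* at 349, *Il1r2* at 198, *Trem1* at 49.0, *Retnlg* at 31.3 and *Mmp8* at 10.4. The libraries of neighbours in the control order overlapped for *S100a8* and *Il1r2*, for *Il1r2* and *Ltf*, for *Ltf* and *Trem1*, and for *Retnlg* and *Mmp8*. *Ltf* covered 9.68 to 130 per kilobase in control libraries and 957 to 1065 in sgKRT19 libraries, while *S100a9* covered 541 to 773 in the latter. In sgKRT19 tumors no neighbours of the order overlapped except *Trem1* and *Retnlg*, whose ranges were 35.8 to 59.0 and 24.8 to 37.0.

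Because general leukocyte genes were also higher, the members were next set against a leukocyte reference, the mean log2(value + 1) of *Ptprc*, *Itgb2*, *Coro1a*, *Lcp1*, *Cd53* and *Laptm5*. This reference was higher by 0.84 on the log2 scale in sgKRT19 tumors, and all 6 of its genes were called higher, beside 17.9% of all tested genes. Relative to it, 3.22% of tested genes were called higher and 67.6% lower, with a median relative fold change of −0.83 over all genes. *Ltf* kept the largest difference among the members, with a relative log2 fold change of 3.80 (SE 0.290). Its log2 value minus the reference was −5.81 to −1.71 in sgScramble and 0.096 to 0.577 in sgKRT19 libraries. *S100a8*, *Il1r2* and *S100a9* had relative log2 fold changes of 0.66 (limma adjusted p = 0.0355), 0.62 (adjusted p = 0.0326) and 0.60 (adjusted p = 0.0454). The relative difference was 0.47 for *Retnlg* (adjusted p = 0.384), −0.47 for *Trem1* (adjusted p = 0.139) and −0.55 for *Mmp8* (adjusted p = 0.222), and none of these 3 passed the test.

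The 3 smaller relative calls rested on the reference and on single libraries. With *Ptprc* alone as reference only *Ltf* was called higher, the relative fold changes of *S100a8*, *S100a9* and *Il1r2* were 0.31, 0.25 and 0.27, and *Trem1* (−0.81) and *Mmp8* (−0.90) were called lower. Against *Ptprc* alone, 2.18% of all tested genes were called higher and 84.0% lower, so being lower was not particular to these members. Only *Ltf* was called without sgScramble library 4, sgKRT19 library 5 or sgKRT19 library 8, and *Ltf* and *Il1r2* without sgScramble library 2. This fit pooled the spread over genes strongly (220 prior degrees of freedom, against 5.20 without the reference), so its errors hardly used the spread of the gene itself. Exact two-sided permutation tests of the relative values, with 35 possible assignments of 7 libraries to the groups, gave the smallest possible p, 0.0571, for *Ltf*, *S100a8*, *S100a9* and *Il1r2* (0.1 adjusted over 7 tests), 0.114 for *Mmp8* and *Trem1* and 0.171 for *Retnlg*, and 4 against 3 libraries cannot reach 0.05.

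As a share of the normalized read count of *Ptprc* in the same library, not corrected for length, *S100a9* was 8.85% to 17.8% in sgScramble and 13% to 17.9% in sgKRT19 tumors, and *Il1r2* was 10.3% to 17.7% against 14.4% to 19.1%. Those ranges overlapped. *Trem1* was 8.70% to 14.6% of *Ptprc* in sgScramble tumors and 5.69% to 7.83% in sgKRT19 tumors, with no overlap and the sgKRT19 tumors lower. *Mmp8* was likewise lower without overlap, at 1.63% to 2.56% against 0.786% to 1.40%. By limma against *Ptprc* alone, 84.0% of all tested genes were called lower, so this was not particular to *Trem1* or *Mmp8*. The plot of the fold changes sets the differences in level beside those relative to the 6 leukocyte genes.

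**Figure D2:**
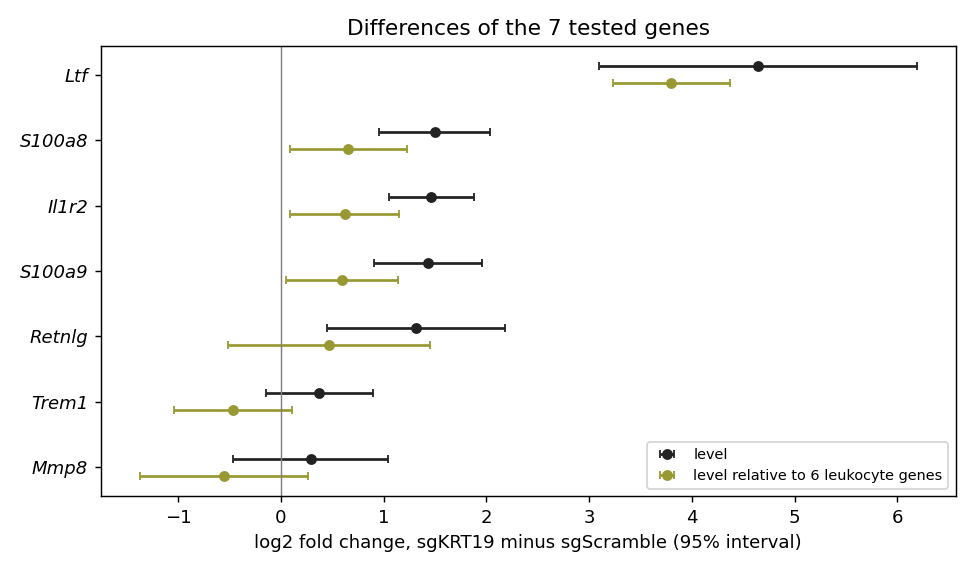
Log2 fold changes of the 7 tested genes, sgKRT19 minus sgScramble, with 95% intervals from limma (4 against 3 libraries). Black points are differences in level and olive points are differences relative to the 6 leukocyte genes. All but *Ltf* shift to within 1 of 0 once the leukocyte genes are subtracted, and *Trem1* and *Mmp8* move to negative values with intervals that include 0.

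The members were ranked in several orders across the control tumors, some of them split by nearly equal values. *S100a8*, *S100a9* and *Il1r2* ranked the 4 sgScramble libraries alike, with library 1 highest, then 3, 4 and 2. *Hbb-bs*, a hemoglobin gene that marks red cells and so blood, had that order as well, at 1534, 311, 627 and 419. For *S100a8*, libraries 4 and 2 were nearly equal, at 65.8 and 65.2. *Il1r2* was also close in libraries 3, 4 and 2, at 128, 123 and 119. *Trem1* and *Retnlg* had the control order 1, 4, 3, 2, and *Mmp8* had 4, 1, 3, 2. However, *Trem1* had 112 reads in both library 3 and library 4, and *Retnlg* had 4 to 12 reads in the controls. The orders were not tested against counting error. In sgKRT19 tumors *Hbb-bs* was 2096, 249 and 1133, and library 5 was highest for *S100a8*, *S100a9*, *Il1r2*, *Trem1*, *Retnlg* and *Mmp8* too. Of these, *Il1r2* and *Mmp8* shared the whole order of *Hbb-bs* (5, 8, 6), whereas *S100a8*, *S100a9*, *Trem1* and *Retnlg* had 5, 6, 8. Some of these gaps were small. *Il1r2* was 355 in library 8 and 348 in library 6, from 338 and 348 reads. In libraries 5, 6 and 8 *Mmp8* had 26, 19 and 25 reads and *Retnlg* 19, 19 and 14. The match to *Hbb-bs* was not tested against counting error. *Hbb-bs* itself did not pass the test between the groups (log2 fold change 0.50, limma adjusted p = 0.594). With *Hbb-bs* as a covariate, and likewise without sgScramble library 1 and sgKRT19 library 5, the same 5 members were called higher. Both settings were chosen after the data were seen. *Hbb-bs* is a single gene followed in few libraries, and the part of blood in these differences was not tested.

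*Ltf* followed another order in the control tumors, with library 3 highest, then 1, 2 and 4. Of 10 secretory epithelial genes, a list chosen after these values were seen, 5 had the same order (*Tff1*, *Tff2*, *Muc5ac*, *Agr2* and *Krt8*) and 5 had others (*Muc1*, *Muc6*, *Cldn18*, *Epcam* and *Krt18*). *Tff1* was 1802, 867, 5017 and 400 in sgScramble tumors and 18596, 21313 and 16706 in sgKRT19 tumors (log2 fold change 3.82, limma adjusted p = 0.00195). *Muc5ac* was 623, 603, 1713 and 465 against 6074, 11205 and 9860 (log2 fold change 3.56, adjusted p = 0.000187). Of the 10 genes, 7 were called higher and 1 lower, beside 17.9% and 16.0% of all tested genes. Their sums were 98960 to 155129 in sgScramble and 257885 to 272366 in sgKRT19 tumors, of which *Krt8* and *Krt18*, general keratins of simple epithelium, made up 73.2% to 86.8%. Without these the other 8 genes summed to 13026 to 33214 and 61232 to 71436. *Agr2* and *Epcam* were not called, and *Muc6* was lower (−4.36). None of the 10 was at 0, and their part in the *Ltf* result was not tested. Among sgKRT19 libraries *Krt8* shared the order of *Ltf*, and *Tff1*, *Tff2*, *Muc5ac* and *Agr2* did not. *Ltf* itself was close in libraries 6 and 8, at 3616 and 3673. Control library 3 also stood apart for skeletal muscle genes, with *Ckm* at 141 against 0 to 3.71 in the other control tumors and 938 to 2653 in sgKRT19 tumors. All 6 muscle genes were called higher, *Ckm*, *Actn2*, *Myh4* and *Tnnt3* of them tested through the sgKRT19 libraries, with sums of 49.4 to 1807 against 14097 to 21868. Without control library 3 the log2 fold change of *Ltf* was 5.20 (limma adjusted p = 0.000156).

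**Figure D3:**
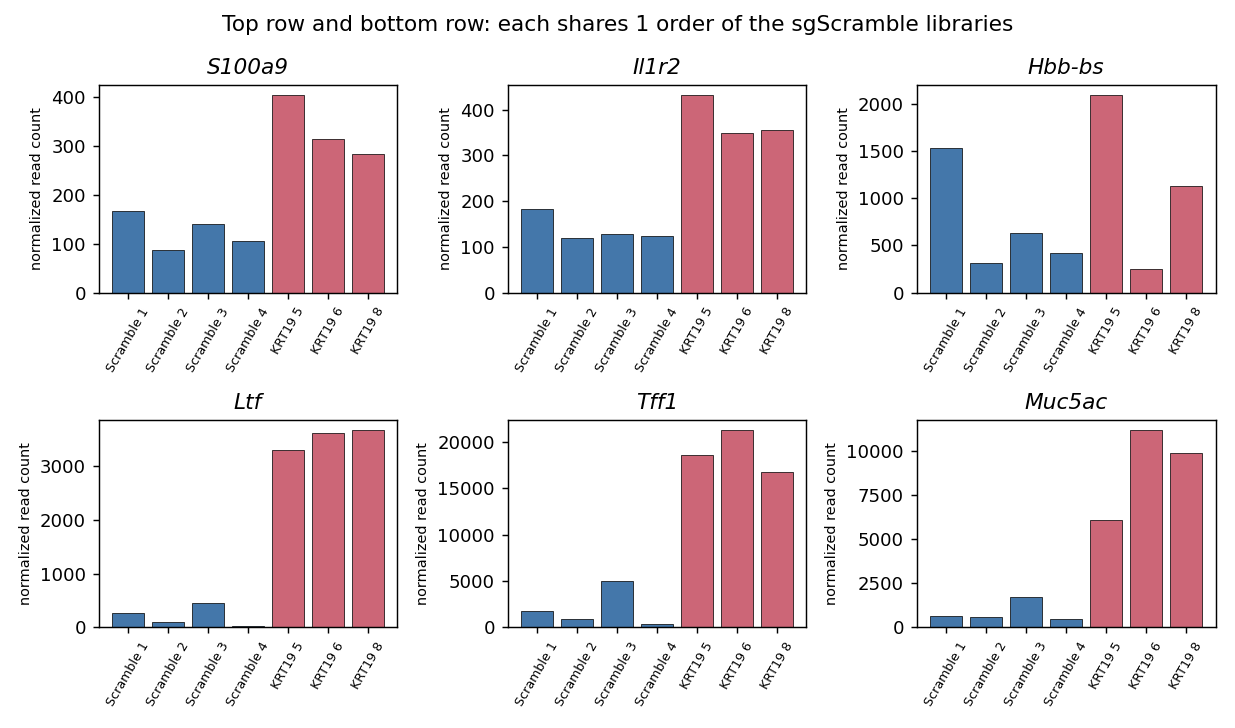
Normalized read counts in each tumor library as bars from 0 (blue sgScramble 1 to 4, red sgKRT19 5, 6 and 8). In the top row *S100a9*, *Il1r2* and *Hbb-bs* share the control order 1, 3, 4, 2, and in the bottom row *Ltf*, *Tff1* and *Muc5ac* share the control order 3, 1, 2, 4. Some neighbours in these orders are nearly equal, such as *Il1r2* in sgScramble libraries 3, 4 and 2 and *Muc5ac* in libraries 1 and 2.

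The other genes of the neutrophil program were then described by list. Of 6 primary granule genes, 3 were tested. *Ctsg*, cathepsin G, was higher (7.04 ± 3.06 against 40.8 ± 29.2, log2 fold change 2.22, adjusted p = 0.0118), *Prss57* was lower (437 ± 53.6 against 163 ± 74.5, −1.51, adjusted p = 0.00216), and *Prtn3*, proteinase 3, was 12.5 ± 0.920 against 14.5 ± 5.64 and not called. *Mpo*, myeloperoxidase, had values of 0 to 3.95. Cathepsin G is also a mast cell protease. *Ctsg* reached the filter value in 1 sgScramble and 3 sgKRT19 libraries, so like *Retnlg* it was tested through the group where it was higher. The call of *Prss57* held with each library left out in turn.

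Of 12 secondary and tertiary granule genes, 11 were tested, 1 was called higher, 2 were called lower and 8 were not called, with a median log2 fold change of 0.13. *Cybb*, the phagocyte oxidase subunit that macrophages share, was higher (0.63, adjusted p = 0.0251). *Chil3*, a chitinase-like lectin of neutrophils and macrophages, was lower, at 1683, 2786, 2455 and 2272 in sgScramble and 154, 127 and 263 in sgKRT19 tumors (−3.71, adjusted p = 2.38e-05). *Lcn2*, which encodes the iron-siderophore binding protein lipocalin 2 and which epithelia also express, was lower (−1.30, adjusted p = 0.0200). *Mmp9* (0.71, adjusted p = 0.0651) and *Cd177* (1.26, adjusted p = 0.0643) were not called, and neither was *Olfm4* (−0.89, adjusted p = 0.0721). *Ltf* and *Lcn2*, iron-handling proteins of the same granule class, therefore differed in opposite directions. The calls of *Cybb* and *Lcn2* were lost without sgKRT19 library 6 or 8 (adjusted p up to 0.0792 and 0.0731). The 1 of 11 called higher in this list compares with 17.9% of all genes, and the 2 of 11 called lower with 16.0%.

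In the list of mature neutrophil genes, 14 of 17 were tested, of which 12 were called higher, none was called lower and 2 were not called (*Fpr1* and *Mxd1*), beside 17.9% of all tested genes called higher. The median log2 fold change was 1.01, beside 0.01 over all genes. *Fpr2*, a formyl peptide receptor gene, was 52.9, 26.7, 18.3 and 28.8 in sgScramble and 172, 124 and 136 in sgKRT19 tumors (2.24, adjusted p = 0.000826). *Hdc*, the histamine-forming enzyme shared with basophils, was higher by 1.57 (adjusted p = 0.00387). *Acod1*, the itaconate-forming enzyme also made by macrophages, was higher by 1.55 (adjusted p = 0.000666). *Cxcr2* was 43.1 ± 12.0 and 109 ± 34.1 (1.32, adjusted p = 0.0100) and *Csf3r* 222 ± 62.9 and 394 ± 137 (0.81, adjusted p = 0.0407). *Fpr1* was at −0.06 (adjusted p = 0.894), in contrast to *Fpr2*. Relative to the 6 leukocyte genes 3 of the 14 were called higher and 2 lower, beside 3.22% and 67.6% of all genes. With each library left out in turn, 7 to 11 of the 12 calls held, the fewest without sgScramble library 2 or sgKRT19 library 8, and 6 held each time (*Fpr2*, *Hdc*, *Acod1*, *Cxcr2*, *Clec4e* and *Ptafr*). The call of *Csf3r* held in 2 of 7 such fits (adjusted p up to 0.148). *Stfa2* was at or under the floor, and *Stfa2l1* and *Padi4* did not reach the filter.

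Of 6 transcription factors of granulocytes, 5 were tested and 3 were called higher, beside 17.9% of all tested genes. These were *Gfi1* (1.30, adjusted p = 0.0213), *Cebpb* (0.52, adjusted p = 0.0383) and *Spi1*, which encodes PU.1 (0.48, adjusted p = 0.0199). *Cebpa* (0.06) and *Cebpd* (−0.25) were not called, and *Cebpe*, the factor of late granule formation, did not reach the filter at 1.83 to 9.45. Only 1 of the 3 calls held without sgScramble library 2, sgKRT19 library 6 or sgKRT19 library 8. Of 7 ligands that recruit or sustain neutrophils, 6 were tested and 3 were called higher, again beside 17.9% of all tested genes. These were *Csf2* (1.38, adjusted p = 0.0168), *Cxcl3* (1.25, adjusted p = 0.0165) and *Cxcl5* (0.88, adjusted p = 0.00833). *Cxcl1*, *Cxcl2* and *Ppbp* were not called, and *Csf3*, G-CSF, did not reach the filter. Without sgKRT19 library 8 only *Cxcl5* of these was called, and *Csf2* was lost without library 6 as well (adjusted p up to 0.0542). Relative to the 6 leukocyte genes, none of the factors or ligands was called higher. In each of these lists 2 were called lower, beside 67.6% of all genes. The plot of these lists shows the calls and their spread.

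**Figure D4:**
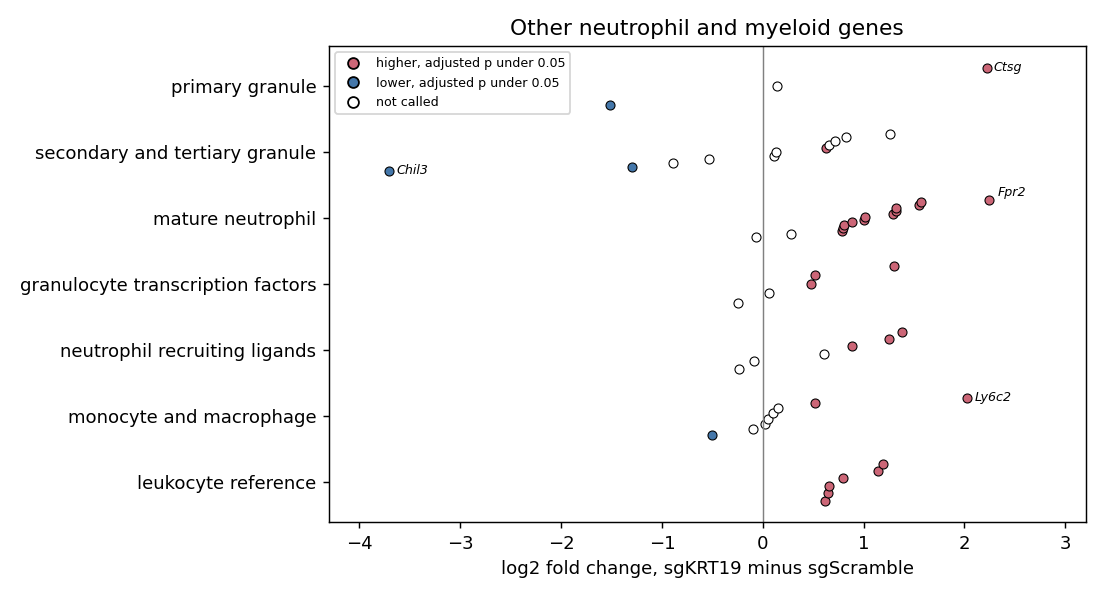
Log2 fold changes, sgKRT19 minus sgScramble (4 against 3 libraries), of the tested genes of 7 lists. Red points were called higher, blue points lower and white points were not called at a limma adjusted p under 0.05. The mature neutrophil genes lie mostly to the right of 0, with 12 of 14 called higher, whereas the secondary and tertiary granule genes lie on both sides.

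Markers of other cells were measured beside the members. The counts below stand beside 17.9% of all tested genes called higher and 16.0% called lower. Of 8 monocyte and macrophage genes 2 were called higher (*Ly6c2*, 2.03, and *C1qa*, 0.52), 1 lower (*Mrc1*, −0.50) and 5 were not called, with sums of 12020 to 17262 in sgScramble and 14696 to 17356 in sgKRT19 tumors and none at 0. Without sgKRT19 library 5 only *Ly6c2* of these was called, and *Mrc1* was also lost without sgScramble library 2 or 4 or sgKRT19 library 8 (adjusted p up to 0.123). *Ly6c2*, a gene of inflammatory monocytes, was 158 ± 46.0 against 629 ± 69.4 (adjusted p = 0.000185). *Ccr2* of the same list was 655 ± 194 against 592 ± 36.4 and was not called (−0.09, limma adjusted p = 0.771). With the 8 monocyte and macrophage genes as the reference in place of the leukocyte genes, a choice made after the data were seen, *Ltf*, *S100a8*, *S100a9* and *Il1r2* were again called higher, beside 6.70% of all genes. Of 6 eosinophil and basophil genes, 3 were tested, *Siglecf* was higher (1.32) and *Mcpt8* lower (−1.37), and *Epx* and *Prg2*, which define eosinophils, were at or under 3 reads in every library. Of 4 regulatory T cell genes *Ctla4* (1.69) and *Il2ra* (1.04) were higher, *Ikzf2* was lower (−1.27) and *Foxp3* was not called (−0.07, adjusted p = 0.660). The 6 skin keratinocyte genes summed to 173 to 252 and 173 to 265, with *Lor* lower (−1.51), *Krt1* at or under 3 reads and none called higher. The calls of *Mcpt8* and *Lor* were each lost without sgScramble library 1 or 3 or sgKRT19 library 6 or 8 (adjusted p up to 0.0886 and 0.0882). The part of these cells in the differences of the 10 genes was not tested.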

How the data were processed

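RNA from 7 s/c tumors (4 sgScramble, 3 sgKRT19) was sequenced as single reads from an Illumina TruSeq stranded library. The labels name polyA RNA, whereas the study's methods name a total RNA kit. The authors deposited 1 table whose values are a signal: read counts per gene divided by a size factor for each library. The submitters' processing notes name the mouse build mm10; the aligner, counter and annotation are not given in the sources used here. Values were whole multiples of what 1 read is worth in 100% of cases (tolerance 0.1 read), so whole reads were recovered. Positions and exon lengths came from GENCODE M21 of GRCm38, which held 37095 of 38026 identifiers, and no exon of a member overlapped an exon of another gene.

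limma 3.58.1 in R 4.3.3 was fitted to log2(value + 1) with group as the only term (eBayes with trend) over genes that reached a value of 10 in 3 or more libraries. The pseudocount understates changes of low genes. Alternatives used edgeR 4.0.16 and DESeq2 1.42.0 on the recovered reads, other pseudocounts, filters and scalings, and each library left out. The scripts were tested on simulated data. The driver alleles of the cell line and 1 gene of the mature neutrophil list are not reported here. The members and all gene lists were chosen with earlier results of these data known. Named were all members, *Krt19*, *Ptprc* and, of each other list, up to 4 called genes with the largest fold changes plus defining genes that were not called. Several other genes were named after their values were seen, and so were the secretory epithelial and muscle genes set beside *Ltf*.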

Additional observations from a re-analysis of the deposited data

Results flagged for a closer look

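Among 59 genes examined, 12 had 1 sgScramble library set apart from the other 3 by Dixon's criterion, which by chance marks about 1 in 20. Of the 10 genes it marked *Il1r2*, where sgScramble library 1 was at 182 and the other controls at 119 to 128, so the library nearest to the sgKRT19 tumors was the one set apart. The call of *Il1r2* held without it. *Cxcl3* was also set apart in library 1, at 213, and reached the range of the sgKRT19 tumors. *Spi1* was low in library 2, at 308. *Il2ra* was high in library 4, at 90.0, and *Ctla4* low in library 3, at 23.7. Library 3 was set apart for 6 skeletal muscle genes, *Ckm* at 141, *Acta1* at 934, *Actn2* at 58.5, *Myh4* at 199, *Mylpf* at 180 and *Tnnt3* at 294, and for *Muc5ac* at 1713. It was also the control tumor with the highest *Ltf*, which itself did not meet the criterion.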

How the results depend on the processing

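The count of members called higher was 4 or 5 under every alternative run. It was 4 with a filter at 50, with a test for a fold above 1.5, and without sgScramble library 2 or 3 or sgKRT19 library 5 or 6, and *Retnlg* was the member lost each time. *Ltf*, *S100a8*, *S100a9* and *Il1r2* stayed called under all 19 alternatives, 2 of them chosen after the data were seen, with log2 fold changes of 3.96 to 5.20, 1.28 to 1.64, 1.22 to 1.59 and 1.25 to 1.60. Relative to the leukocyte reference, 4 members were called higher, beside 3.22% of all genes, and 1 with *Ptprc* alone, beside 2.18%. The count was 2 with no filter on low values, 1 in a test for a fold above 1.5, and 1 to 4 when each library was left out. The shares over all genes in these last settings are not given here. With monocyte and macrophage genes as the reference, also chosen after the data were seen, 4 members were called, beside 6.70% of all genes. The relative fold changes of *Mmp8* (0.0054) and *Trem1* (0.092) turned positive. Over all genes, 7240 were called, 1336 in a test for a fold above 1.5, and 4886 to 7739 when each library was left out. Scaling by library size only shifted the median log2 fold change of all genes by −0.21, with 27.7% of 7892 calls higher (2187 higher, 5705 lower) in place of 52.8%, and left 5 members called. Of 1103 values of single genes under alternatives, 977 kept direction and side of the threshold, 122 lost the call, 2 gained it and 2 turned sign. No paired analysis was run. The study's figure legend calls the control and edited cells paired, but the labels do not say which tumors would form a pair. Depth limits the reading of *Camp*, *Ngp* and *Ly6g*, for which a difference was not detectable. The labels give no batch, and any batch aligned with the groups cannot be told apart from them, and the causes of the changes across settings were not tested.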
